A study of Mus musculus with 9 samples.

Results

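Odorant-binding proteins and other secreted proteins of the nasal glands were followed in the main olfactory epithelium (MOE) of mice lacking TAAR enhancer 2. The 9 genes were chosen by name, as gland and mucus secretion genes, from the 24421 genes with raw counts, and all 9 were among the 19775 genes tested. They are the odorant-binding protein genes Obp1a, Obp2a and Obp2b, the BPI fold genes Bpifb3, Bpifb4 and Bpifa1, the mucin gene Muc5b, the water channel gene Aqp5 and the transcription factor gene Sox9. None of the 9 was called in any comparison of genotypes, beside 0.0202% of all genes tested in homozygous against wild type, 0% in heterozygous against wild type and 0.00506% in homozygous against heterozygous. Obp2a and Obp2b were low in 2 of the 3 homozygous libraries and in heterozygous replicate 2. Obp1a and Sox9 differed with the replicate number of the library. These 2 of 9 genes stand beside 8.95% of all genes tested, a count too small to set apart from that share.

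RNA sequencing was performed on whole MOE dissected at postnatal day 14 from mice labelled as strain C57BL/6, in a line made by deleting TAAR enhancer 2 in C57BL/6J zygotes with CRISPR-Cas9. The study describes its mouse lines in general as being on mixed C57BL/6J and 129 backgrounds. This enhancer lies within the cluster of Taar genes, which encode trace amine-associated receptors of olfactory sensory neurons. The comparison asked which transcripts depend on the enhancer, with 3 libraries each of wild type (WT), heterozygous (het, 1 deleted copy) and homozygous (homo, both copies deleted) genotype. According to the methods the genotypes were littermates and both sexes were used, but the labels give neither sex nor litter. The deletion was constitutive, so no promoter or Cre limits it to a cell type. According to the study the replicates of a genotype were separate mice, and the p-values measure the spread between them together with any technical spread.

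The MOE is covered by mucus that Bowman's glands beneath the epithelium, sustentacular cells and the glands of the nasal cavity secrete. Odorant-binding proteins are small secreted lipocalins that carry hydrophobic odorants in this mucus, BPI fold proteins are secreted lipid-binding proteins of the airway surface, and gel-forming mucins give mucus its structure. Aqp5 passes water across the apical membrane of secretory cells, and Sox9 is a transcription factor of gland and duct cells that cartilage also expresses.

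Total counts per library ranged from 20527992 to 32262005. In homo against WT, 4 genes were called by the edgeR quasi-likelihood test (adjusted p under 0.05 and fold change over 1.5), and all 4 were Taar genes lower in homo. Taar6, the clearest of them, had 134, 214 and 170 raw counts in WT and 14, 17 and 20 in homo, and the others were Taar3, Taar7a and Taar9. Taar6 was also the gene called in homo against het. Summed markers of mature olfactory sensory neurons (8 of 8 detected) ran from 6657 to 7728 CPM (counts of a gene relative to the TMM-normalized total of its library), and those of sustentacular cells (7 of 7 detected) from 3570 to 5402 CPM. The 3 libraries numbered 1 stood apart, with 1769 genes (8.95%) called against numbers 2 and 3, and the labels do not say what the number stands for.

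Obp2a and Obp2b are neighbours on chromosome 2 and share nearly the same upstream sequence. In the GENCODE M21 annotation of GRCm38, Obp2a lies at chr2:25700043-25703326 and Obp2b at chr2:25737009-25740097, both on the plus strand, and Obp1a lies at chrX:78085505-78091374 on the minus strand. RefSeq promoter windows (GRCm38.p6) were found for 7 of the 9 genes, and 4 are shown 5′ to 3′ on the gene's strand because they hold the letters TATAAA (capitals) about 30 bases before the annotated start. They cover chr2:25699824-25700042 for Obp2a, chr2:25736757-25737006 for Obp2b, chrX:78091375-78091624 for Obp1a and chr2:154142630-154142879 for Bpifa1, and end before the RefSeq and GENCODE starts.
Obp2a: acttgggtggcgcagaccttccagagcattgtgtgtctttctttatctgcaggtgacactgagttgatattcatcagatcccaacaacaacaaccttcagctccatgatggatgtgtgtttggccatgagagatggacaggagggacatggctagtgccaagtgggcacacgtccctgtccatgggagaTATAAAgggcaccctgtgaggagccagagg
Obp2b: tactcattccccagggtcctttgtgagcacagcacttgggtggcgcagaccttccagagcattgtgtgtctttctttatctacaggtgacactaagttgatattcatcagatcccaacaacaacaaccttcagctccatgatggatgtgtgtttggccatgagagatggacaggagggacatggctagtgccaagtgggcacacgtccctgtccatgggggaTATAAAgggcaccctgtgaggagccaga
Obp1a: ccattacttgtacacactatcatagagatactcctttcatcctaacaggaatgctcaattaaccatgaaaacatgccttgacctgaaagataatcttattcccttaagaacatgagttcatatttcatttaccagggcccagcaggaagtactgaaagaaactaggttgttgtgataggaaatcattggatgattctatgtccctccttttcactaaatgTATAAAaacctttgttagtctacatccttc
Bpifa1: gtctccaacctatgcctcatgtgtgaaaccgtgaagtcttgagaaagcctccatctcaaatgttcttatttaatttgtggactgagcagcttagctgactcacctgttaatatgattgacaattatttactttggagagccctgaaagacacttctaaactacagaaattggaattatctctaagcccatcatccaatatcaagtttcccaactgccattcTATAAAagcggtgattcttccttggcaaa

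The Obp2a and Obp2b sequences aligned over 217 bases with no gap, and 214 of these (98.6%) were identical. TATAAA began 30 bases before the GENCODE start in Obp2a, Obp2b and Obp1a and 29 bases before it in Bpifa1, always on the gene's own strand. Over all 32851 promoter windows, 7.59% held TATAAA on the gene's strand in the 250 bases before the RefSeq start, and 12.4% held it on either strand. The forkhead letters TGTTTAC, searched on both strands, were in none of the 7 matched genes and in 3.17% of all windows. The SOX letters ACAATG, on either strand, were in the windows of Obp2a and Obp2b and in 10.7% of all windows. No match overlapped another. These matches describe the letters of the windows and are not evidence of binding.

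Per kilobase of merged exons, Obp1a had the highest mean level over the 9 libraries, at 1850 ± 1239 CPM per kb (SD, n = 9). It was followed by Bpifa1 at 1321 ± 112, Obp2b at 1274 ± 507, Obp2a at 1141 ± 482, Bpifb4 at 806 ± 197 and Bpifb3 at 536 ± 77.9 CPM per kb. Each neighbour in this order differed by less than the sum of their SDs. Muc5b at 49.5 ± 42.0, Aqp5 at 39.6 ± 8.45 and Sox9 at 7.30 ± 2.06 CPM per kb were lower. The steps from Bpifb3 to Muc5b and from Aqp5 to Sox9 were larger than the summed SDs, while the step from Muc5b to Aqp5 was not. Together the 9 genes took between 0.760% of the counts, in homo replicate 3, and 1.27%, in WT replicate 3.

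**Figure D1:**
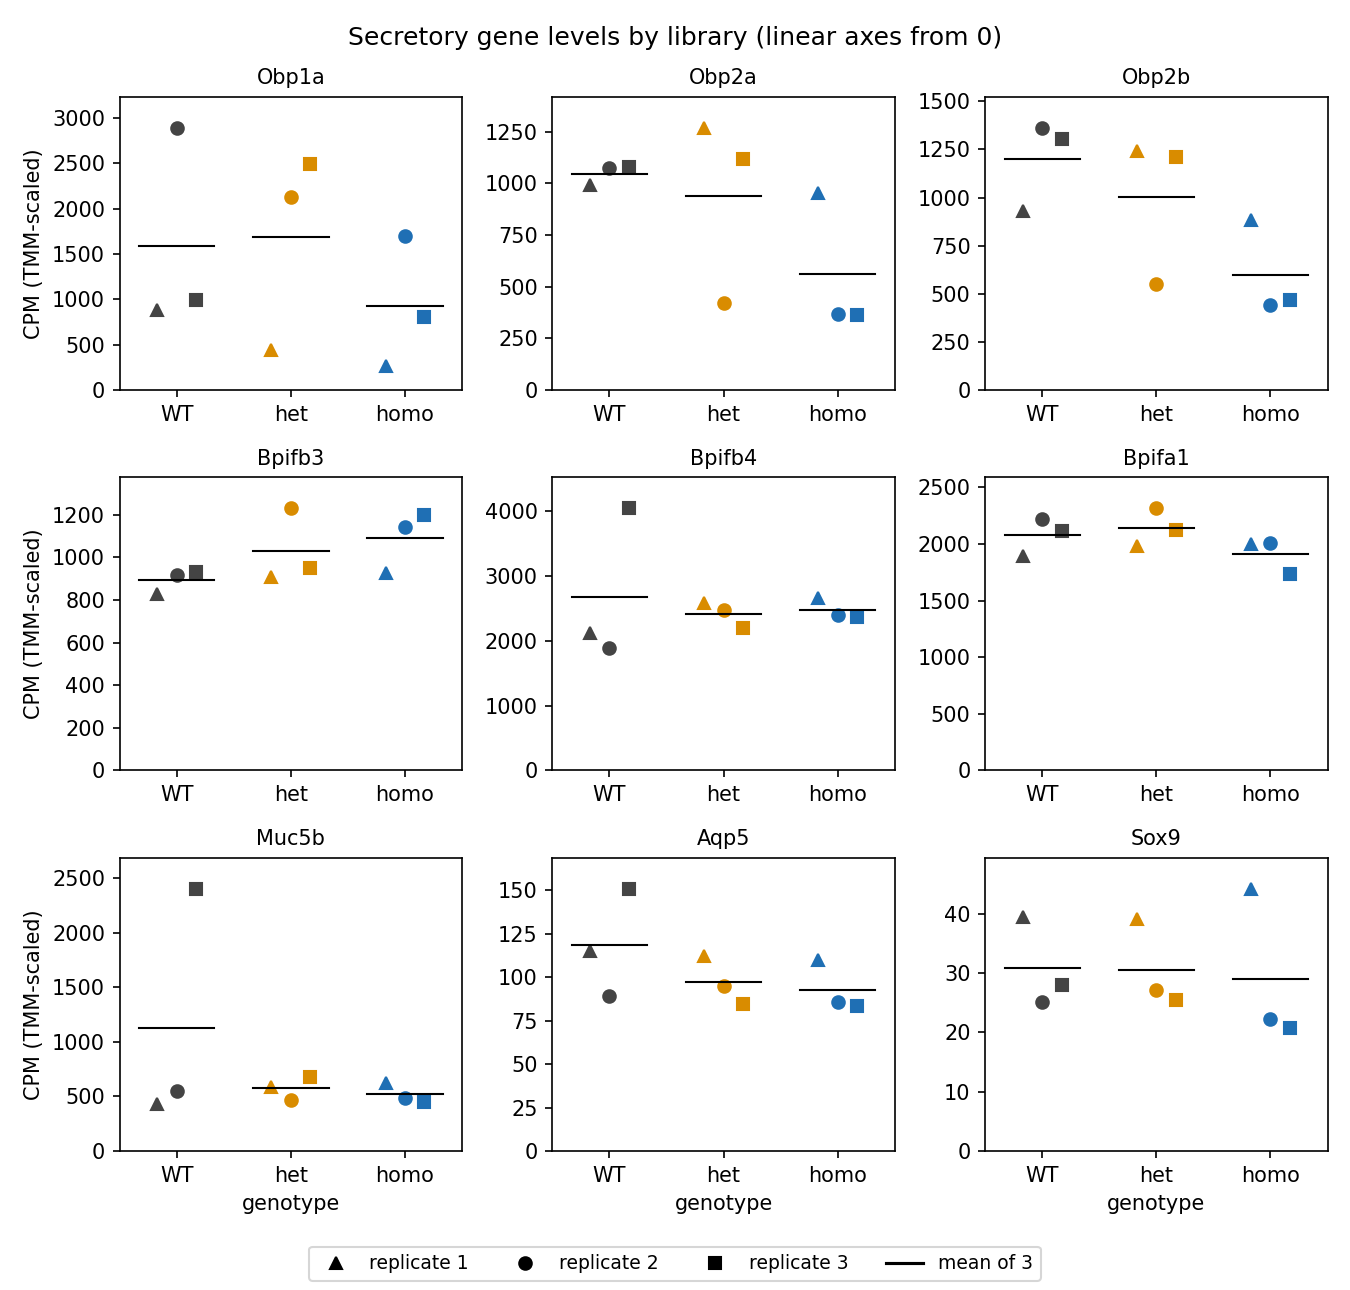
Level of each of the 9 genes in every library, in TMM-scaled CPM on linear axes that start at 0, by genotype; the marker shape gives the replicate number and the bar the mean of 3 libraries. Obp2a and Obp2b are low in het replicate 2 and homo replicates 2 and 3, Muc5b reaches 2401 CPM in WT replicate 3, and Sox9 is highest in the libraries numbered 1.

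Of the odorant-binding genes, Obp2a and Obp2b came closest to following genotype. Obp2a had 990, 1075 and 1077 CPM in WT replicates 1 to 3, 1268, 422 and 1119 in het, and 954, 370 and 365 in homo. Obp2b had 928, 1362 and 1304 CPM in WT, 1243, 552 and 1211 in het, and 884, 442 and 467 in homo. For both genes the homo libraries lay below every WT library, but homo replicate 1 was close to WT replicate 1, and het replicate 2 lay far below the other het libraries and near homo replicates 2 and 3. The deposited normalized counts of Obp2a showed the same 3 low libraries, with 10655 in het replicate 2, 9311 in homo replicate 2 and 9180 in homo replicate 3 against 23982 to 32040 in the other 6.

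In homo against WT, Obp2b was lower by a log2 fold change of -1.003 (SE 0.35, 95% interval -1.80 to -0.21), with an edgeR p of 0.0195 before adjustment and an adjusted p of 1. Obp2a was lower by -0.90 (SE 0.45, interval -1.90 to 0.11, edgeR adjusted p of 1). Neither gene passed the threshold, and the interval of Obp2a included 0. Obp2a and Obp2b were the 2 of 9 genes whose homo and WT libraries did not overlap, both lower. Of all tested genes, 2.71% had homo below WT without overlap and 2.97% had homo above WT. The 2 genes moved together and share part of their sequence, so they are not separate cases. The count is too small to set apart from those shares. In a bulk sample, fewer secreting cells and less RNA per cell cannot be told apart.

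Split by number, the difference was not shared by all libraries. In number 1, with 1 library of each genotype, Obp2a in homo stood at 96.3% of WT and Obp2b at 95.3%. For the means of numbers 2 and 3 they stood at 34.1% and 34.1%. Same-number libraries of WT and homo were not alike for every number, so these are not ratios of matched pairs. In het against WT, Obp2a had a log2 fold change of -0.16 (SE 0.45) and Obp2b of -0.26 (SE 0.35), and without het replicate 2 these became 0.20 and 0.05. Between homo and het, Obp2a differed by -0.73 (SE 0.45) and Obp2b by -0.75 (SE 0.35), and neither was called.

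The 2 genes moved together. The ratio of Obp2b to Obp2a per kilobase had a mean of 1.15 ± 0.155 (SD, n = 9), from 0.942 in homo replicate 1 to 1.33 in het replicate 2. Of the 50-base windows of Obp2a, 11.7% also occur in Obp2b, and 11.9% of those of Obp2b occur in Obp2a, so part of their reads may be shared. How the authors treated reads that map to several genes is not stated.

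Among 16155 other genes with a mean of at least 1 CPM, the pattern of Obp2a over the 9 libraries was most like that of Lcn3 (Pearson r = 0.98), then Obp2b (r = 0.97) and Dmbt1 (r = 0.96). These correlations describe log2 CPM over libraries that share genotypes, numbers and composition. Lcn3, a lipocalin gene 62.2 kb from Obp2a on the same chromosome, had 161 CPM in het replicate 2, 166 in homo replicate 2 and 190 in homo replicate 3, and 436 to 518 in the other 6. Dmbt1, which encodes a secreted scavenger receptor protein of mucosal fluids and lies on another chromosome, had 112, 60.2 and 86.9 CPM in the same 3 libraries and 305 to 560 in the others. The genes most like Obp2b were Erp44 (r = 0.97), an endoplasmic reticulum chaperone of the secretory pathway, Obp2a and Hif1a (r = 0.96), the oxygen-responsive transcription factor. Erp44 varied little, from 62.8 to 76.3 CPM, with its 3 lowest values in the same 3 libraries. These genes were picked for likeness to Obp2a or Obp2b, so their low values there are not a separate result.

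Xist, transcribed from the inactive X chromosome, separated the libraries as well. It was between 2344 and 3078 CPM in WT replicates 1 and 2, het replicate 2 and homo replicates 2 and 3, and between 1.18 and 1.94 CPM in the other 4. Ddx3y, a Y chromosome gene, was at most 0.0491 CPM in the Xist-high libraries and 58.8 to 103 CPM in the other 4. By these genes the Xist-high libraries read as female and the other 4 as male. The 3 libraries low in Obp2a and Obp2b were all in the Xist-high set, but WT replicates 1 and 2, in the same set, had 990 and 1075 CPM of Obp2a. With the Xist level added to the fit, a setting chosen after seeing the data, no gene of the 9 was called by genotype.

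Obp1a varied most. It had 884, 2892 and 993 CPM in WT replicates 1 to 3, 445, 2125 and 2497 in het, and 260, 1703 and 808 in homo. The highest library was 11.1 times the lowest, and the SD of log2 CPM within genotypes was 1.24, above that of 98.9% of 16156 genes. The genotypes overlapped widely, with a log2 fold change of -0.78 (SE 0.77) in homo against WT and 0.09 (SE 0.77) in het against WT, and neither was called. Without WT replicate 2 the difference in homo against WT was -0.02, and without homo replicate 2 it was -1.58.

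Instead, Obp1a was low in the libraries numbered 1. It fell by 1.89 on the log2 scale in number 1 against numbers 2 and 3, with genotype in the fit (SE 0.37, edgeR adjusted p = 0.00953). Number 1 ran from 260 to 884 CPM and numbers 2 and 3 from 808 to 2892, so the sets overlapped only through WT replicate 1 and homo replicate 3. Within each genotype number 1 was the lowest. Without het replicate 1 the adjusted p became 0.0672, and without homo replicate 1 it became 0.0689 (edgeR), so the call rested on both.

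The genes most like Obp1a were Gm14743 (r = 0.995), Mup5 (r = 0.99) and 5430402E10Rik (r = 0.96). Gm14743 and 5430402E10Rik lie on the X chromosome, 149 and 160 kb from Obp1a, and Mup5 lies in the major urinary protein cluster on chromosome 4. Mup5, a lipocalin gene of the same protein fold, had 13.8 CPM in homo replicate 1 and 811 CPM in WT replicate 2, the lowest and highest libraries of Obp1a too. In number 1 against numbers 2 and 3, Mup5 fell by 3.29 on the log2 scale (SE 0.54, edgeR adjusted p = 0.00549). Mup5 is named here for its likeness to Obp1a, so its shared pattern is not a separate result. Of the 50-base windows of Obp1a, 7.2% also occur in Gm5938.

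The BPI fold genes form a cluster on chromosome 2, with Bpifb3 at chr2:153918230-153932996, Bpifb4 at chr2:153938212-153964101 and Bpifa1 at chr2:154142880-154149219. All 3 share no 50-base window with another gene. Bpifb3 had 827, 919 and 932 CPM in WT, 909, 1229 and 949 in het, and 924, 1144 and 1199 in homo. Its 3 highest libraries were the 3 in which Obp2a and Obp2b were lowest, and its correlation with Obp2a over the 9 libraries was r = -0.92, as a description. In homo against WT it differed by 0.29 (SE 0.15, interval -0.05 to 0.63, edgeR adjusted p of 1), and homo replicate 1 at 924 CPM lay below WT replicate 3. Its nearest genes in pattern were Plcl1 (r = 0.98), Timm50 (r = 0.98) and Ptprs (r = 0.97).

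**Figure D2:**
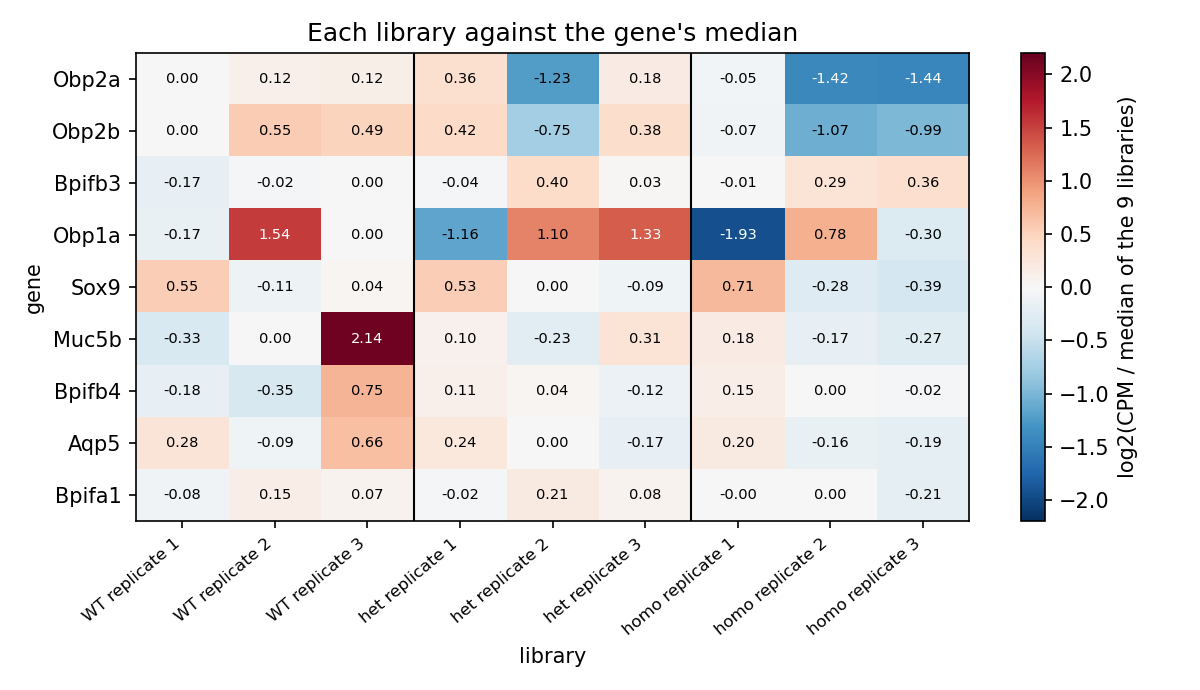
Level of each gene in each library relative to that gene's median over the 9 libraries, as log2 of the CPM ratio (red higher, blue lower, rows are genes, columns libraries grouped by genotype). Obp2a and Obp2b are bluest and Bpifb3 is reddest in het replicate 2 and homo replicates 2 and 3, Muc5b, Bpifb4 and Aqp5 are reddest in WT replicate 3, and Bpifa1 stays near its median.

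Bpifa1, an abundant secretion of the upper airway lining, was the steadiest of the 9. It had 1896, 2220 and 2110 CPM in WT, 1978, 2313 and 2118 in het, and 2000, 2005 and 1734 in homo. Its highest library was 1.33 times its lowest, and its SD of log2 CPM within genotypes, 0.117, was above that of 18.0% of genes. In homo against WT it differed by -0.12 (SE 0.12), with an interval of -0.39 to 0.16, so a change larger than the fold of 1.5 that a call needs lay outside the interval. Its most alike genes, Rassf3 (r = 0.89), Ppcs (r = 0.89) and Ntpcr (r = 0.86), had lower correlations than those of the other 8.

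Bpifb4 and Muc5b were set apart by 1 library. Bpifb4 had 2109, 1880 and 4034 CPM in WT, 2580, 2464 and 2198 in het, and 2661, 2393 and 2363 in homo. Muc5b, the gel-forming mucin of glands, lies at chr7:141839070-141873084 and had 433, 546 and 2401 CPM in WT, 584, 466 and 675 in het, and 619, 484 and 452 in homo. In both, WT replicate 3 was the highest of the 9 libraries. The other libraries of Muc5b overlapped between genotypes, whereas WT replicates 1 and 2 of Bpifb4 lay below every het and homo library. The fold change of Muc5b in homo against WT was -1.12 (SE 0.55, edgeR adjusted p of 1), and without WT replicate 3 it was 0.07. That of Bpifb4 was -0.11 (SE 0.26), and 0.30 without WT replicate 3. In het against WT, Muc5b differed by -0.97 (SE 0.55) and Bpifb4 by -0.15 (SE 0.26), and without this library by 0.23 and 0.27.

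Aqp5, at chr15:99590782-99594829, was highest in the same library. It had 115, 89.3 and 151 CPM in WT, 112, 95.3 and 84.5 in het, and 110, 85.6 and 83.2 in homo. Its difference in homo against WT was -0.35 (SE 0.20), and -0.15 without WT replicate 3. Among the 16155 genes, those most like Muc5b were Cnnm2 (r = 0.99), Zc3hav1 (r = 0.99) and Sbno2 (r = 0.99), those most like Bpifb4 were Tollip (r = 0.97), Map3k14 (r = 0.97) and Zdhhc18 (r = 0.97), and those most like Aqp5 were Man2b1 (r = 0.99), Card10 (r = 0.99) and Itga3 (r = 0.98). All 9 of these genes were highest in WT replicate 3. They were picked for likeness to genes that peak there, so this is not a separate result.

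WT replicate 3 differed in cell markers too. The summed neutrophil markers (7 of 7 detected, none at 0 in all libraries) stood at 786 CPM there, and ranged from 57.8 to 786 CPM in WT, 62.1 to 208 in het and 34.9 to 219 in homo. Summed sustentacular markers were lowest in this library, at 3570 CPM, against 4364 to 5402 in the other 8. The list was split: Cyp2g1, Ugt2a1 and Ermn were at their lowest there, while Cyp1a2 was level with WT replicate 1, both at 180 CPM. Ugt2a2 and Muc2 were not at their lowest, and Cbr2 was at its highest, 986 CPM. The part of these cells in the levels of Muc5b, Bpifb4 and Aqp5 was not tested.

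Sox9, at chr11:112782224-112787760, had 39.5, 25.1 and 27.9 CPM in WT, 39.2, 27.1 and 25.4 in het, and 44.2, 22.3 and 20.7 in homo. The 3 libraries numbered 1 were the highest, from 39.2 to 44.2 CPM, and did not overlap with the other 6, from 20.7 to 27.9 CPM. By genotype it differed by -0.09 (SE 0.31) in homo against WT, -0.01 (SE 0.31) in het against WT and -0.07 (SE 0.31) in homo against het. In number 1 against numbers 2 and 3 it rose by 0.74 (SE 0.10, edgeR adjusted p = 0.00106), and it was called when each of the 9 libraries was left out in turn. Once number 1 was in the fit, the SD of log2 CPM of Sox9 within genotypes was 0.152, against 0.445 without that term. The median over 16156 genes fell as well, from 0.213 to 0.132. The number 1 libraries were known to stand apart when the term was chosen, so this drop is not a separate result. The genes most like Sox9 were Cxxc5 (r = 0.98), Mir8116 (r = 0.98) and Ltbp4 (r = 0.98).

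Summed markers of other tissues differed with number 1 as well. They were higher in number 1 for respiratory ciliated cells, at 705 to 760 CPM against 485 to 652, and for basal cells, at 161 to 254 against 86.4 to 158. Of the ciliated markers 3 of 7 were called, all higher, while Tekt1 (log2 fold change -0.16) and Ccdc39 (-0.20) went the other way. Of the basal markers 2 of 5 were called, both higher, while Icam1 (-0.61) went the other way. Over all genes, 5.42% were called higher. Cartilage markers, of which 8 of 8 were detected, summed to 607 to 985 CPM in number 1 and 332 to 632 in the others. Of these 8, Col2a1 was called, at 1.66 (SE 0.24, edgeR adjusted p = 0.00141). The log2 fold changes of those not called were 0.54 for Acan, 0.41 for Col9a1, 0.37 for Col11a2, 0.13 for Comp, -0.44 for Matn3, -0.63 for Hapln1 and -0.77 for Matn1. Bone markers summed to 1156 to 1356 CPM in number 1 and 941 to 1121 in the others, without overlap. Of these 6, Mepe was called, lower by -1.68 (SE 0.11, edgeR adjusted p = 0.000119). The others had 0.48 for Ibsp, 0.37 for Sp7, 0.31 for Bglap2, -0.33 for Dmp1 and -0.45 for Bglap. Vomeronasal organ markers summed to 673 to 684 against 437 to 483 CPM, but nearly all of this was Gnao1 (331 to 495 CPM) and Gnai2 (94.6 to 194 CPM), G protein subunits that other tissues also express. The receptor genes Vmn2r1, at 0.416 to 2.30 CPM, and Vmn1r206, at 0 to 0.540 CPM, were low and overlapped between the numbers, and Trpc2 was listed at 0 in all 9 libraries. Neutrophil markers were lower, at 34.9 to 62.1 against 88.7 to 786 CPM. The part of these tissues in the levels of Sox9 and Obp1a was not tested.

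In counts, the edgeR test called 0 of the 9 genes in homo against WT, beside 0.0202% of all genes tested. An unadjusted edgeR p under 0.05 was seen for 1 of the 9 (Obp2b), beside 682 of all 19775 genes. The test called 0 of 9 in het against WT (0% of all genes) and 0 of 9 in homo against het (0.00506% of all genes). In each of these, 0 of 9 had an unadjusted p under 0.05, beside 253 and 131 of the 19775 genes. DESeq2 and limma-voom also called 0 of 9 in these 3 comparisons. No gene had non-overlapping libraries in het against WT (3.95% of all genes) or in homo against het (4.15%). In number 1 against numbers 2 and 3, 2 of 9 were called beside 8.95% of all genes, Sox9 higher (5.42% of all genes were higher) and Obp1a lower (3.52% lower). Number 2 against number 3 gave 0 of 9, with 0% of all genes. The median log2 fold change of the 9 in homo against WT was -0.35, with 1 of 9 positive. Over all genes the median was 0.0040, with 10130 of 19775 positive. Without WT replicate 3, Muc5b and Bpifb4 turned positive, at 0.07 and 0.30, while the other genes kept their sign.

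**Figure D3:**
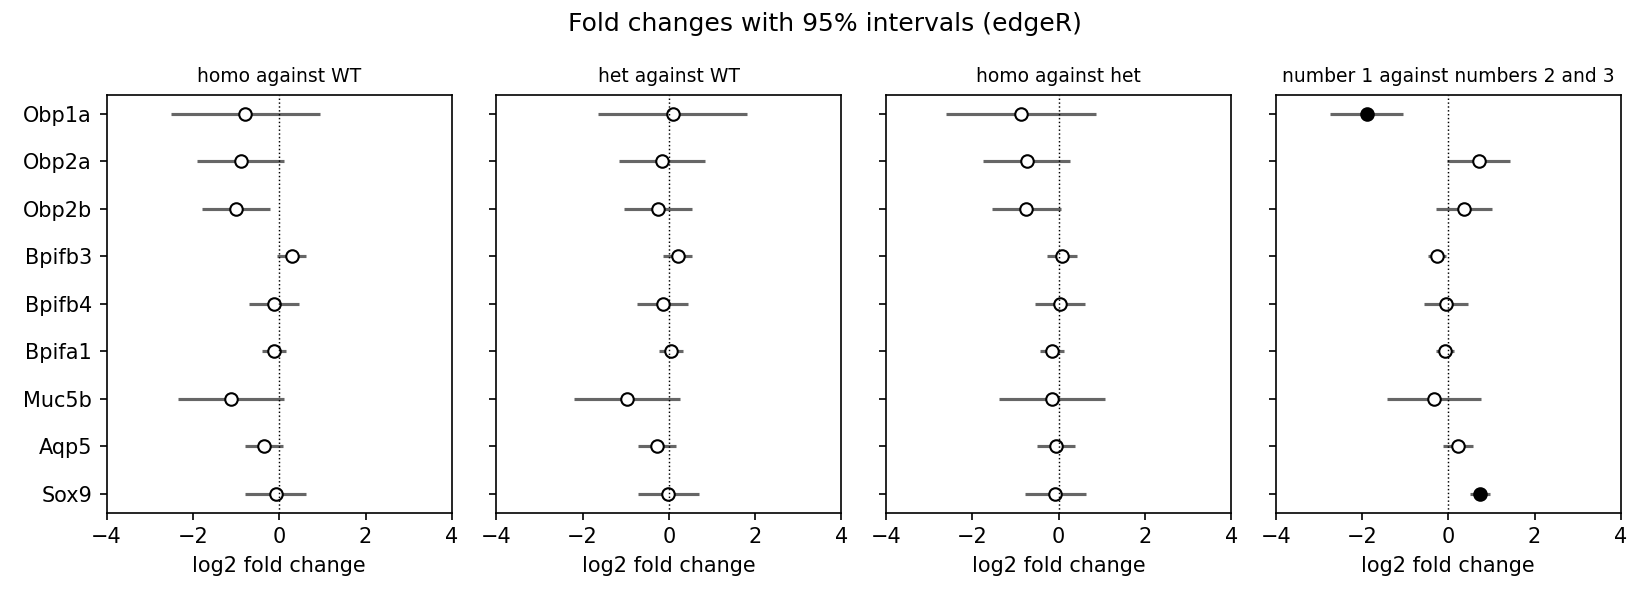
Log2 fold changes of the 9 genes (points) with 95% intervals (lines) from edgeR in the 3 genotype comparisons and in number 1 against numbers 2 and 3; filled points were called and open points were not. Only Obp1a and Sox9 in the comparison of numbers are filled, at -1.89 and 0.74.

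The related gland genes likewise gave no call by genotype. The lists held 8 tested lipocalins, 11 BPI fold genes, 16 mucins and mucus processing genes, 10 host defence secretions, 13 fluid and ion transport genes and 16 gland transcription factors, and none was called in any of the 3 genotype comparisons. At an unadjusted edgeR p under 0.05 in homo against WT there were 0 lipocalins, 0 BPI fold genes, 3 mucin genes, 3 host defence genes, 0 transport genes and 4 transcription factors, and all 10 were lower in homo. Over all genes, 682 of 19775 had such a p. They were the mucin and mucus genes Muc13, Tff2 and Galnt12, the host defence genes Ltf, Pigr and Slpi, and the transcription factor genes Spdef, Xbp1, Bhlha15 and Ehf, each with an edgeR adjusted p of 1. Of these 10, all but Bhlha15 were highest in WT replicate 3. Pigr, the receptor that carries antibodies across secretory epithelium, had 1388 CPM there against 22.3 to 230 in the other 8 libraries, Slpi, a secreted protease inhibitor, had 20.4 against 0.294 to 1.70, and Tff2, a trefoil peptide, had 18.8 against 3.42 to 9.66. The lists' median log2 fold changes in homo against WT were -0.43, -0.69, -0.55, -1.24, -0.24 and -0.15 in the same order.

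Of the 12 most abundant genes of these lists, 2 in each, some stood out in single libraries. Ltf, which encodes the iron-binding secretion lactoferrin and is also a neutrophil granule protein, had 964, 580 and 2721 CPM in WT, 821, 292 and 768 in het, and 651, 255 and 155 in homo. It was high in WT replicate 3, and low in the 3 libraries low in Obp2a, and its log2 fold change of -2.01 in homo against WT (SE 0.67, edgeR adjusted p of 1) was not called. Bpifb9b, a BPI fold gene, had 9050, 7496 and 793 CPM in WT, 1474, 4190 and 5078 in het, and 4915, 2445 and 2588 in homo, and Bpifb9a had 220 CPM in WT replicate 3 and 307 in het replicate 1 against 729 to 2192 in the others. Both were lowest in WT replicate 3 and next lowest in het replicate 1.

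Xbp1, the transcription factor of the unfolded protein response in secretory cells, stood at 460 CPM in WT replicate 3 and 121 to 220 in the others, and Agr2, a mucin-folding enzyme gene, at 434 against 137 to 208. Muc2, Scgb1c1, Aqp4, Slc12a2 and Elf5 varied less, but Aqp4 and Slc12a2 were lower in every library numbered 1 than in the others. Muc2, a mucin that is also among the sustentacular markers used here, ran from 267 to 325 CPM, Scgb1c1, a secretoglobin, from 608 to 898, Aqp4, another water channel, from 419 to 593, Slc12a2, the sodium-potassium-chloride cotransporter of secretory cells, from 429 to 633 and Elf5, a gland transcription factor, from 88.2 to 124. Lcn11 ran from 205 to 659.

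**Figure D4:**
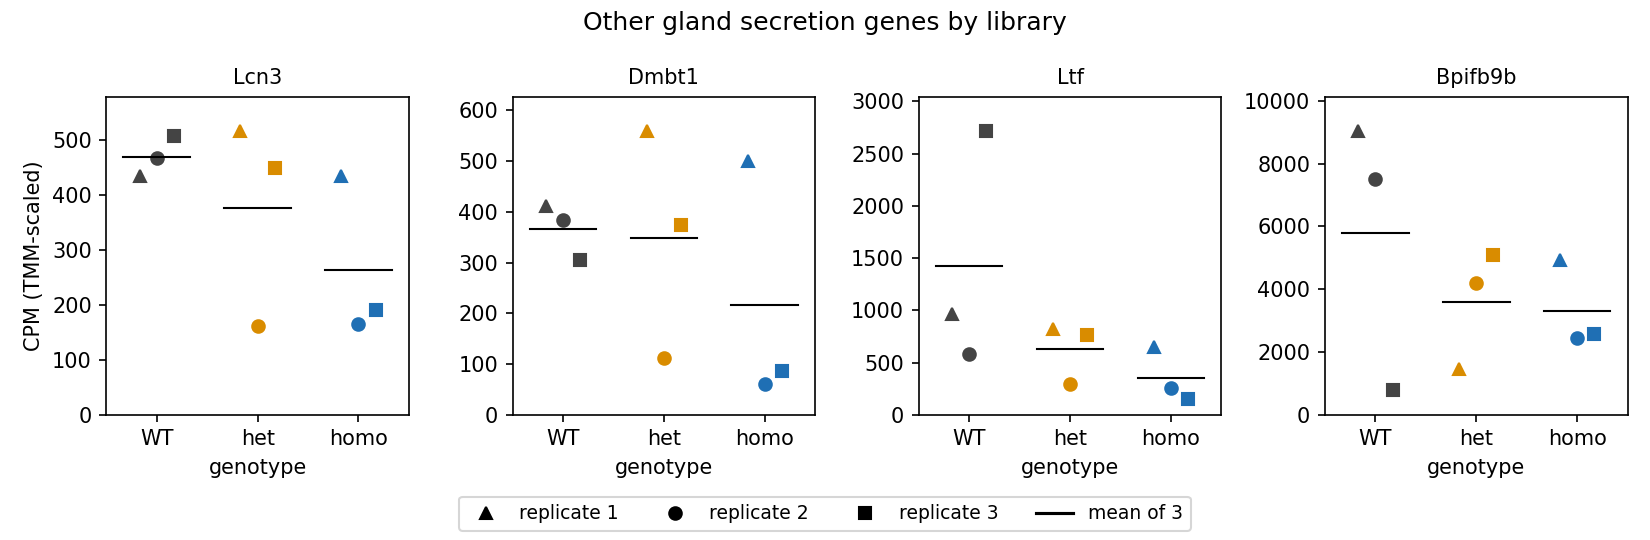
Level of 4 further gland secretion genes in every library, in TMM-scaled CPM on linear axes from 0, by genotype; marker shape gives the replicate number and the bar the mean of 3. Lcn3 and Dmbt1 are low in het replicate 2 and homo replicates 2 and 3, Ltf peaks and Bpifb9b is lowest in WT replicate 3.

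By number, the called transport genes and gland transcription factors were all higher in number 1. The rise was not shared by the whole transport list, of which 9 of 13 had a positive log2 fold change. Its most abundant genes fell without overlap and missed a call by fold only. Slc12a2 changed by -0.42 (SE 0.06, edgeR adjusted p = 0.00124), at 429 to 460 CPM against 567 to 633. Aqp4 changed by -0.34 (SE 0.06, edgeR adjusted p = 0.00356), at 419 to 482 CPM against 566 to 593. Called genes were 0 higher and 2 lower of 8 lipocalins, 0 of 11 BPI fold genes, 2 higher of 16 mucin genes, 1 higher and 1 lower of 10 host defence genes, 5 higher of 13 transport genes and 4 higher of 16 transcription factors, beside 5.42% higher and 3.52% lower of all genes. The 2 of 16 mucin genes and 1 of 10 host defence genes are counts too small to set apart from those shares. The lipocalins were Lcn4 and Mup5, both lower, and the mucus genes were Fcgbp and Clca1, of which Clca1 did not exceed 0.491 CPM in any library. Of the host defence genes, Dmbt1 was higher and Scgb3a1, a secretoglobin, was lower. The transport genes were Aqp3, Slc9a3r1, Chrm1, Vipr1 and Car6, and the transcription factors were Foxc1, Creb3l1, Sox10 and Foxa1. The lists' median log2 fold changes were -1.92, 0.16, 0.16, -0.51, 0.36 and 0.24 in the order above, beside -0.03 over all genes.

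Foxc1, a forkhead factor, ran from 36.3 to 39.9 CPM in number 1 and from 18.2 to 21.5 in the others, and rose by 0.93 (SE 0.07, edgeR adjusted p = 0.000119). Aqp3, a water and glycerol channel that basal cells also express, ran from 196 to 199 CPM against 111 to 139. Sox10, a factor of gland cells and of glia, ran from 55.1 to 55.7 CPM against 33.1 to 42.0. Car6, a secreted carbonic anhydrase, had 155, 137 and 90.5 CPM in number 1 of WT, het and homo, and 35.0 to 99.1 in the other 6, so the sets overlapped. Foxa1, a forkhead factor of airway and gland epithelium, had 41.6, 36.2 and 36.5 CPM in number 1 and 9.85 to 25.9 in the others. Its values in the 3 libraries low in Obp2a, 16.9 in het replicate 2, 12.6 in homo replicate 2 and 9.85 in homo replicate 3, were the lowest of the 9. Lcn4 ran from 25.4 to 43.3 CPM in number 1 and from 61.6 to 277 in the others, without overlap, as Scgb3a1 did at 1.66 to 2.31 against 4.65 to 28.5 CPM.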

How the data were processed

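Whole-MOE libraries were made with a strand-specific kit and polyA selection. Per the labels and the submitters' processing notes, reads were trimmed with Trimmomatic 0.36, mapped to mm10 (GRCm38) with HISAT2 2.1.0 and counted with featureCounts of Subread 1.6.2. The authors deposited raw counts per gene symbol. The authors also deposited a normalized signal, counts divided by 1 DESeq2 1.20.0 size factor per library (0.806 to 1.28), used here only as a second reading of levels. The annotation release, the strand setting and the handling of multiply mapped reads are not given in the sources used here.

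Raw counts of genes with at least 10 counts over the 9 libraries (19775 genes) were tested with the edgeR 4.0.16 quasi-likelihood test in R 4.3.3, with TMM normalization, 1 spread estimate for all 9 libraries and Benjamini-Hochberg adjustment over all genes tested. Tests were two-sided, and a call needed an adjusted p under 0.05 and a fold change over 1.5. Number comparisons had genotype in the fit. The biological coefficient of variation was 23.3%, and 3 counts equalled 0.0928 to 0.147 CPM, covering counting error only. Correlations used log2 CPM with 0.5 added to each count. Exon lengths and shared 50-base windows came from GENCODE M21. The procedure was tested on simulated data.

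The 9 genes, the gland and marker lists and the number comparison were chosen with earlier results of these data known. Genes named beside the 9 are, for each gland list, the 2 with the highest mean CPM and up to 5 called with the smallest p per comparison, and the 3 genes most correlated with each of the 9. The marker genes, Xist, Ddx3y, the Taar genes and the 10 gland genes with an unadjusted p under 0.05 in homo against WT were named after their values were seen. Symbols Obp1b, Obp3, Obp5 to Obp8, Lcn13, Lcn14, Muc3, Muc16, Mucl2 and Lacrt matched no row. Same-number libraries had correlated deviations from their group means (r of 0.670, 0.460 and 0.615) between WT and het, but not for every pair between het and homo (0.779, 0.297 and 0.0912) or WT and homo (0.507, 0.290 and -0.110). Between het and homo, unlike numbers were closer for het replicate 2 with homo replicate 3 (0.606) and het replicate 3 with homo replicate 2 (0.510). The numbers were taken to pair WT with het, but the main genotype tests had genotype only and the replicate block was an alternative. No 2 libraries of the same genotype agreed within sampling noise. Alternatives were DESeq2 1.42.0, limma-voom (limma 3.58.1), other normalization and count filters, fits of 2 genotypes, a replicate block, a term for number 1, each library left out and, added after seeing the data, the Xist level as a covariate.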

Additional observations from a re-analysis of the deposited data

How the results depend on the processing

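No alternative called any of the 9 genes in a genotype comparison, and Sox9 was called by number 1 in all 15 alternatives. Of 830 values recomputed for 50 results, 784 kept direction and side of the threshold. In het against WT, Obp1a turned to -0.03 with limma-voom, -0.05 with the replicate block and -0.19 with a term for number 1. The replicate block changed no call. With the Xist level as a covariate, homo against het turned to 0.22 for Muc5b, 0.03 for Aqp5 and 0.01 for Sox9. The causes were not tested.

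Leaving out each library in turn gave these ranges of log2 fold change for results that turned. In homo against WT they were -0.32 to 0.30 for Bpifb4, -1.48 to 0.07 for Muc5b and -0.52 to 0.15 for Sox9. In het against WT they were -0.31 to 0.85 for Obp1a, -0.44 to 0.20 for Obp2a, -0.44 to 0.05 for Obp2b, -0.35 to 0.27 for Bpifb4, -0.01 to 0.10 for Bpifa1, -1.33 to 0.23 for Muc5b and -0.23 to 0.22 for Sox9. In homo against het they were -0.03 to 0.09 for Bpifb4, -0.21 to 0.05 for Aqp5 and -0.51 to 0.15 for Sox9. In number 1 against numbers 2 and 3 they were -0.15 to 0.16 for Bpifb4 and -0.76 to 0.23 for Muc5b, and 1 to 3 of the 9 genes were called. Sox9 alone was called without het replicate 1 or homo replicate 1, and Obp2a was added without WT replicate 3 or het replicate 3. In number 2 against number 3 they were -0.01 to 0.19 for Bpifb3, -0.56 to 0.08 for Bpifb4, -0.36 to 0.09 for Aqp5 and -0.08 to 0.12 for Sox9. With 3 libraries a genotype, the interval for Obp1a in homo against WT spanned -2.52 to 0.95.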
